A study of Sus scrofa with 12 samples.

Results

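The genes described here carry iron into, through and out of cells or store it inside them. They were taken as the genes of the deposited endometrial expression table whose name is TFRC, FTH1, FTL, SLC40A1, HEPH, CP, TF or CYBRD1. These 8 names gave 9 gene rows of 20674 in the table, because transferrin (TF) is listed as 2 genes. Endometrium, the inner lining of the uterus, was sequenced from Landrace × Yorkshire sows in 4 dietary groups with 3 libraries each, 12 in all. L − N sows, the control, ate a low-fiber (LF) diet with 3.73% crude fiber, and H − N sows ate a high-fiber (HF) diet with 7.46%. L + N and H + N sows ate the LF and HF diets with 0.05% N-carbamylglutamate (NCG), a stable analog of the N-acetylglutamate that switches on arginine synthesis. All groups were fed from breeding through a gestation of 114 days, the 4 groups share breed and farm, and no group was non-pregnant. The vitamin and mineral premix was the same in all diets. The HF diets replaced part of the corn with soybean bran and beet pulp, and the total iron of the diets is not given in the sources used here. The libraries held 14369781 to 19309724 counted reads.

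Iron travels in blood bound to transferrin, and cells take it up when the transferrin receptor (TFRC) carries the loaded protein inside. CYBRD1 reduces ferric iron to the ferrous form that membrane carriers accept. Iron that is not used is held in ferritin, a shell built from heavy (FTH1) and light (FTL) chains, and leaves the cell through ferroportin (SLC40A1), with the copper oxidases ceruloplasmin (CP) and hephaestin (HEPH) returning it to the ferric form. The pig endometrium is known for the iron that its glands pass to the conceptus, much of it in uteroferrin (ACP5), and for macrophages, which are rich in ferritin and ferroportin. Iron regulatory proteins act on the ferritin RNA mainly at translation, which a read count does not show.

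CYBRD1 was the iron gene that separated the groups. Its RNA was about 2 times higher in the control than in each of the other diets, and the other diets could not be distinguished from one another. FTL was lower in H − N than in L − N, and FTH1, FTL and SLC40A1 were lower than L − N on average in every other group without passing the test in most of them. TFRC, CP and TF varied as much between replicates as between groups. In the test of any difference over the 4 groups (edgeR's quasi-likelihood test, called at a Benjamini-Hochberg adjusted p under 0.05), 1 of the 7 iron genes that could be tested was called, CYBRD1. Of all 15351 genes tested, 6.96% were called. HEPH and one of the TF rows did not reach the minimum count, so 7 of 9 rows were tested and none of the counts below speaks for all 9.

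**Figure D1:**
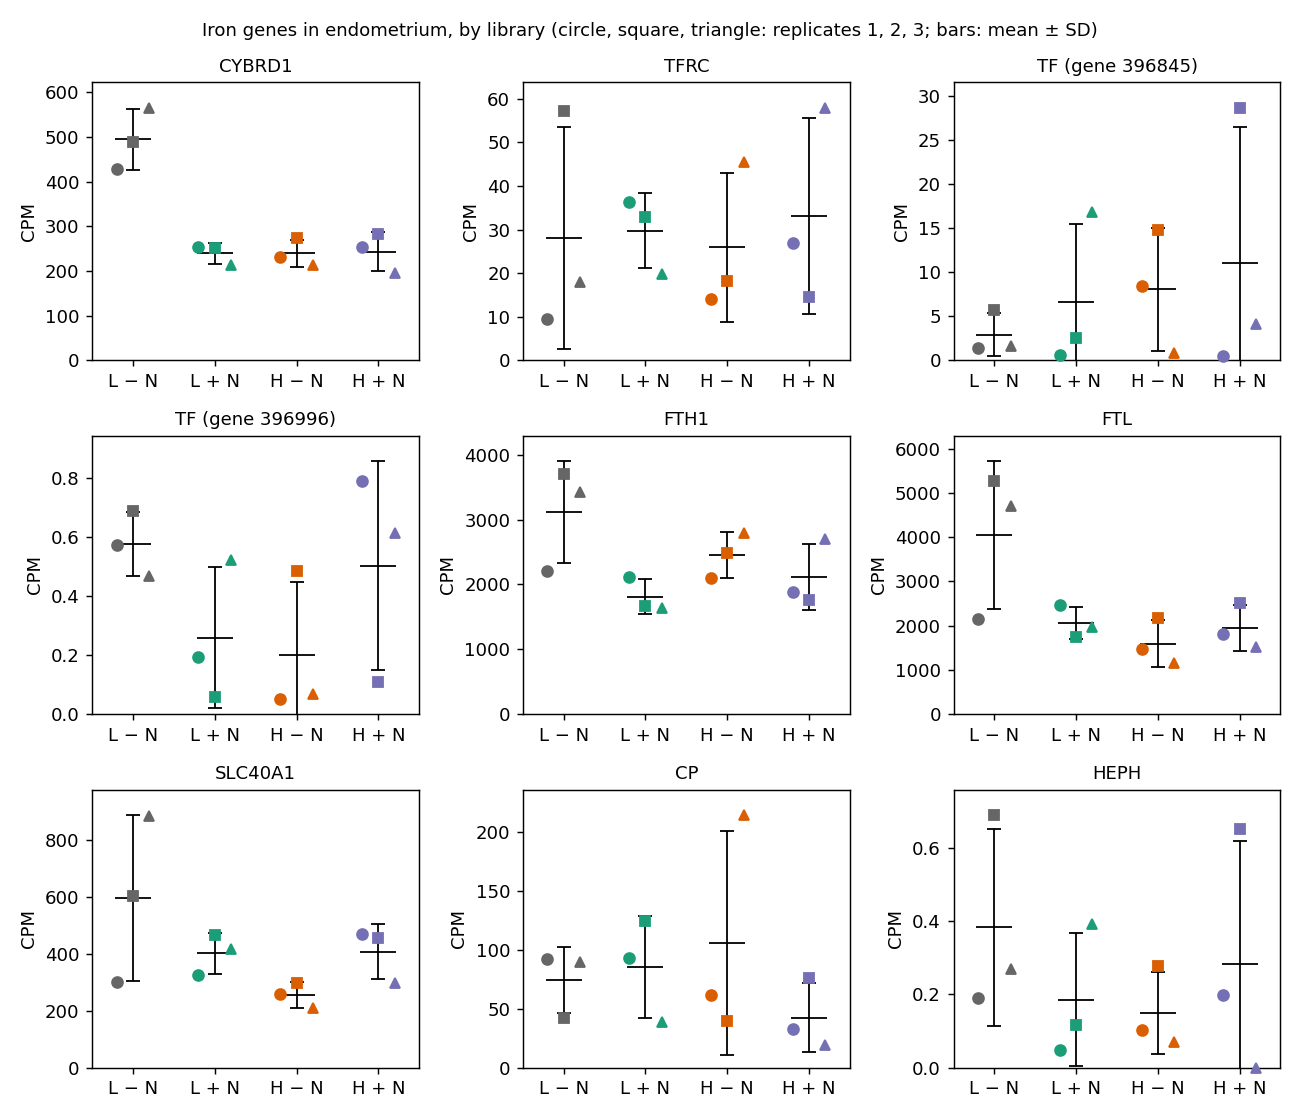
Normalized read counts (CPM, scaled to library size) of the 9 iron gene rows in each library, one panel per gene, with the 4 dietary groups along the x axis. Points are libraries, horizontal bars the group means and vertical bars ± 1 SD (n = 3, cut at 0 where they would pass below it). The 3 control libraries stand above all others for CYBRD1 (429 to 566 CPM against 195 to 282), while the groups of TFRC, CP and TF overlap.

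Per unit of gene length, the ferritin chains led the iron genes by a wide margin. The mean over the 12 libraries was 2561 FPKM (read counts per gene length and library total, as deposited) for FTL and 2352 for FTH1, which placed them at ranks 10 and 11 of all genes. Ferroportin followed with 118 FPKM, CYBRD1 with 57.3, CP with 12.9 and TFRC with 12.2. The TF gene 396845 averaged 3.05 FPKM, the TF gene 396996 0.163 and HEPH 0.0306. In every library FTH1 stood above SLC40A1, SLC40A1 above CYBRD1 and CYBRD1 above CP. The neighbors FTL and FTH1 changed places, FTL being higher in 8 of 12 libraries, and so did CP and TFRC, with CP higher in 7 of 12. Their orders are therefore not separated from the spread. Hephaestin, the membrane-bound oxidase best known from the gut, gave 49 reads over the whole series, 0 to 12 in a library, and so was barely detected in this tissue.

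**Figure D2:**
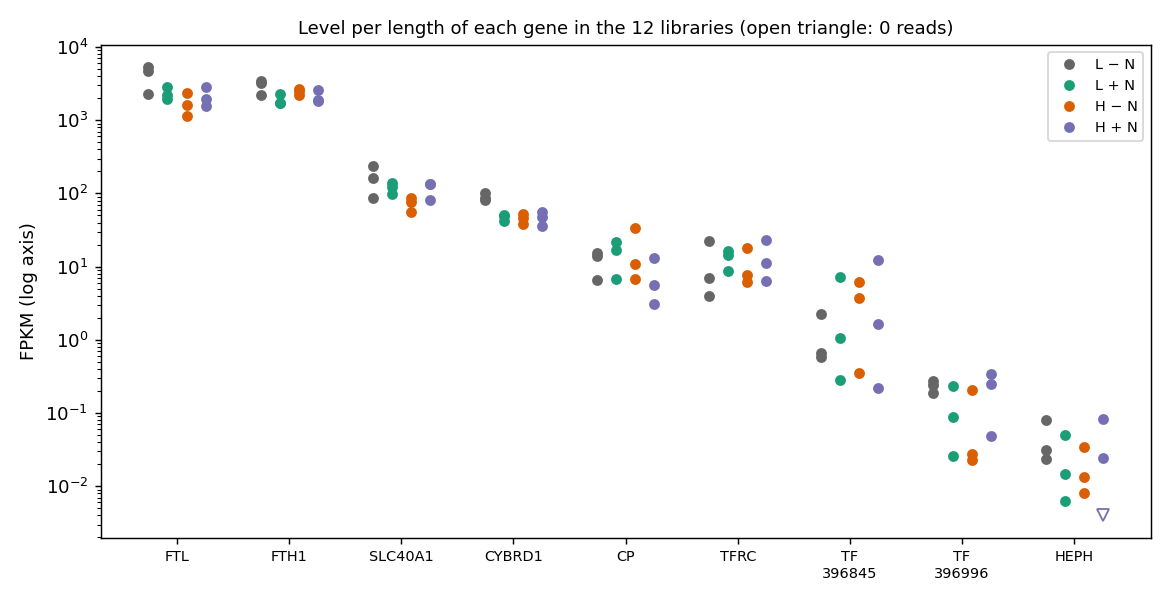
Level of each iron gene row in FPKM on a log axis, 12 libraries per gene, colored by dietary group, with an open triangle where 0 reads were counted. The ferritin chains lie between 1160 and 5330 FPKM in all libraries, and HEPH and the second TF gene lie below 1 FPKM.

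CYBRD1 (gene 100144591; Sscrofa11.1 chr15:77649124-77695141, forward strand) encodes the membrane ferric reductase known as duodenal cytochrome b. Its CPM in replicates 1, 2 and 3 was 429, 490 and 566 in the control, and 254, 252 and 213 in L + N. It was 231, 274 and 214 in H − N, and 253, 282 and 195 in H + N. Every control library stood above every other library, and the remaining groups covered the same range. The group means were 495 ± 68.4 in L − N, 239.7 ± 23.4 for L + N, 239.8 ± 30.6 for H − N and 244 ± 44.2 for H + N (SD, n = 3).

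The difference of CYBRD1 over the 4 groups passed the test (edgeR, adjusted p = 0.0163), and the gene ranked 45 of 15351. Against L − N, it fell by 1.05 on the log2 scale in L + N (SE 0.165, adjusted p = 0.00818), by 1.05 in H − N (SE 0.165, adjusted p = 0.0179) and by 1.02 in H + N (SE 0.165, adjusted p = 0.0155), all by edgeR. These comparisons use the same 3 control libraries and are not independent of one another. Against the control, 9.60% of all genes were called for L + N (3.63% as lower), 5.27% for H − N (3.71% as lower) and 7.97% for H + N (3.66% as lower). Between the treated groups the log2 difference was 0.02 for H + N minus H − N (95% interval −0.34 to 0.38) and 0.02 for H + N minus L + N (−0.34 to 0.38), so that a difference of more than about 0.4 lies outside these intervals. In both of those comparisons 0% of all genes were called (edgeR, adjusted p), with 8.67% and 4.68% under an unadjusted p of 0.05.

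Fiber alone, NCG alone and both together thus each went with about the same difference in CYBRD1. The separate log2 differences from L − N add up to −2.09, while H + N lay −1.02 from it. The interaction, which is the effect of NCG on the HF diet minus its effect on the LF diet, was 1.07 on the log2 scale (SE 0.232, unadjusted p = 0.000707) and was not called after adjustment over all genes (edgeR, adjusted p = 0.253). There, 0% of genes were called by edgeR, while 12.8% had an unadjusted p under 0.05. DESeq2 on the same libraries called the interaction of CYBRD1 (adjusted p = 0.00475), as did edgeR without L − N replicate 1 (adjusted p = 0.0304). Over all genes, these fits called 302 and 437 interactions. Averaged over fiber, the NCG effect was −0.51 (SE 0.116, edgeR, adjusted p = 0.0246, where 7.27% of genes were called and 1.60% as lower). Averaged over NCG, the fiber effect was −0.51 (SE 0.116, adjusted p = 0.0755, where 0.0521% of genes were called). With the interaction in view, neither average describes a single diet.

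Some calls of CYBRD1 were lost when a single library was left out, as were most calls over all genes in the same fits. Of the 12 fits that leave out 1 library each, the difference over the 4 groups was called in 11 and not without L − N replicate 3 (edgeR, adjusted p = 0.0893). L + N against L − N was called in all 12. H − N against L − N was not called without L − N replicate 3 (adjusted p = 0.0836) or without H − N replicate 1 (adjusted p = 0.0641), and H + N against L − N not without L − N replicate 3 (adjusted p = 0.0731) or without H + N replicate 1 (adjusted p = 0.0592). Over all genes, the number called over the 4 groups fell from 1068 to 4 without L − N replicate 3. It fell from 809 to 0 in H − N without H − N replicate 1. In H + N it fell from 1223 to 1 without H + N replicate 1. The NCG effect of CYBRD1 kept its call in 6 of 12 fits, where the number over all genes ran from 519 to 1231. In the 12 fits the log2 differences of the other diets from L − N stayed between −1.15 and −0.89, and the NCG effect between −0.57 and −0.44.

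**Figure D3:**
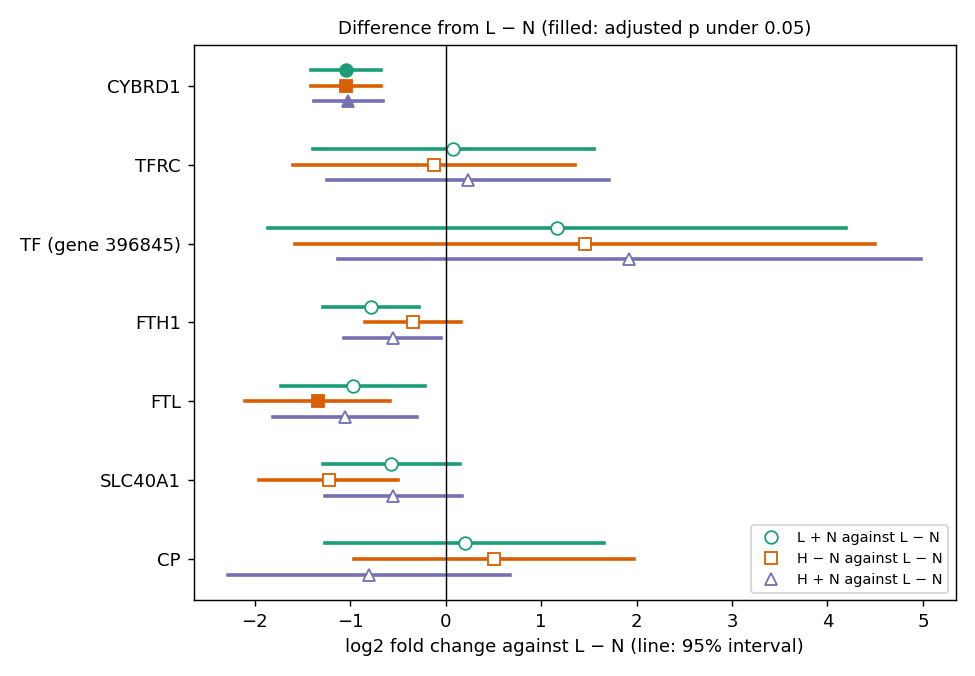
Log2 fold change of the 7 tested iron genes in L + N, H − N and H + N against L − N, from edgeR, with 95% intervals as horizontal lines and filled symbols where the adjusted p was under 0.05. The 3 intervals of CYBRD1 are narrow and lie between −1.41 and −0.66, FTL is filled in H − N alone, and the intervals of TFRC, TF and CP cross 0.

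FTL (gene 397035; chr6:54231121-54232756, forward strand) encodes the ferritin light chain, which helps the iron core form. Its CPM was 2139.7, 5281 and 4715 in the control, 2465, 1746 and 1976 for L + N, 1468, 2172 and 1146 for H − N and 1809.7, 2523 and 1507 for H + N. Replicates 2 and 3 of the control stood far above every other library, and replicate 1 of the control lay inside the range of L + N, H − N and H + N. Ferritin genes have processed copies in mammalian genomes, and reads shared with such copies could make these values uncertain.

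H − N was 1.34 lower than L − N on the log2 scale in FTL (SE 0.345, edgeR, adjusted p = 0.0485), which is 2.54-fold, and the groups overlapped. This call sits close to the threshold. It was kept in 2 of the 12 fits without 1 library, where the difference ran from −1.65 without L − N replicate 1 (adjusted p = 0.00453) to −1.10 without L − N replicate 2 (adjusted p = 0.142). L + N differed from L − N by −0.97 (SE 0.342, adjusted p = 0.0954) and H + N by −1.06 (SE 0.343, adjusted p = 0.0755), neither called by edgeR. Over the 4 groups the adjusted p was 0.0744. The interaction was 1.26 (SE 0.482, unadjusted p = 0.0236, adjusted p = 0.324).

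FTH1 (gene 397030; chr2:9535051-9537979, forward strand) encodes the ferritin heavy chain, which oxidizes iron as it enters the shell. Its CPM was 2216, 3698 and 3427 in the control, 2122, 1664 and 1641 for L + N, 2094, 2484 and 2791 for H − N and 1888, 1759 and 2704 for H + N. In CPM, all L + N libraries lay below all control libraries, as was the case for 17.2% of all genes. H − N and H + N overlapped the control. The edge of L + N was close (2122 against 2216), and in FPKM it overlapped the control. There, L + N replicate 1 had 2264 and L − N replicate 1 had 2203. The log2 difference from L − N was −0.78 in L + N (SE 0.231, edgeR, adjusted p = 0.0551), −0.34 in H − N (SE 0.230, adjusted p = 0.385) and −0.56 in H + N (SE 0.230, adjusted p = 0.145). The NCG effect was −0.50 (SE 0.163, adjusted p = 0.0919) and the fiber effect −0.06 (SE 0.162, adjusted p = 0.883). None of these passed the threshold.

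The 2 ferritin chains did not keep the same proportion in all groups. FTL stood above FTH1 in FPKM in 3 of 3 libraries of L − N, 3 of 3 of L + N, 0 of 3 of H − N and 2 of 3 of H + N. The ratio of FTL to FTH1 was 1.35 ± 0.271 in the control, 1.22 ± 0.0855 for L + N, 0.709 ± 0.251 for H − N and 1.05 ± 0.470 for H + N (SD, n = 3). H − N was thus the group with more heavy-chain than light-chain RNA in each library, with ratios of 0.751, 0.936 and 0.440. Taken from read counts, without gene length, the ratio fell below 1 in L − N replicate 1 (0.966) and H + N replicate 1 (0.959). The number of libraries with FTL above FTH1 therefore depends on the length correction. This ratio was noticed in the values and was not tested. Together the chains took 0.682% ± 0.219 of all counts in L − N, and 0.406% ± 0.0732, 0.403% ± 0.0553 and 0.406% ± 0.0375 in L + N, H − N and H + N.

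SLC40A1 (gene 100737517; chr15:94140635-94161793, reverse strand) encodes ferroportin, the known iron exporter of animal cells. Its CPM was 302, 603 and 887 in the control, 325, 467 and 416 for L + N, 259, 298 and 208 for H − N and 469.6, 457 and 298 for H + N. H − N held the lowest libraries, all below the control although by little at the edge (298 against 302), and the control itself spread 2.93-fold. The log2 difference from L − N was −1.23 in H − N (SE 0.332, edgeR, adjusted p = 0.0555), −0.57 in L + N (SE 0.328, adjusted p = 0.284) and −0.55 in H + N (SE 0.328, adjusted p = 0.303). H + N was 0.68 above H − N (SE 0.328, edgeR, adjusted p = 0.588). Those groups did not overlap in CPM, as was the case for 7.82% of all genes. Their edges nearly met, with 298.3 in H + N replicate 3 and 298.0 in H − N replicate 2. In FPKM these libraries had 81.6 and 85.4, so the groups overlapped. The interaction of 1.25 (SE 0.464, unadjusted p = 0.0207) had an adjusted p of 0.320.

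A single control library carried much of the uncertainty of the ferritin chains and ferroportin. Without L − N replicate 1, the difference over the 4 groups was called for CYBRD1 (edgeR, adjusted p = 0.00508), FTL (0.0136), SLC40A1 (0.0166) and FTH1 (0.0425), 4 genes in place of 1. Over all genes, the same fit called 1732 in place of 1068, so the rise was not limited to iron genes. In that fit FTL was called lower in L + N, H − N and H + N, with log2 differences of −1.28, −1.65 and −1.36. SLC40A1 was called lower in the same 3 groups (−0.89, −1.54 and −0.87), and FTH1 in L + N (−0.98) and H + N (−0.75). Without L − N replicate 2 or replicate 3, none of FTL, FTH1 and SLC40A1 was called in any of these comparisons. Without replicate 3, the calls over all genes also fell, to 4 over the 4 groups and to 207 in L + N against L − N. DESeq2 on all 12 libraries called the same 4 genes over the 4 groups, among 3365 called over all genes.

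**Figure D4:**
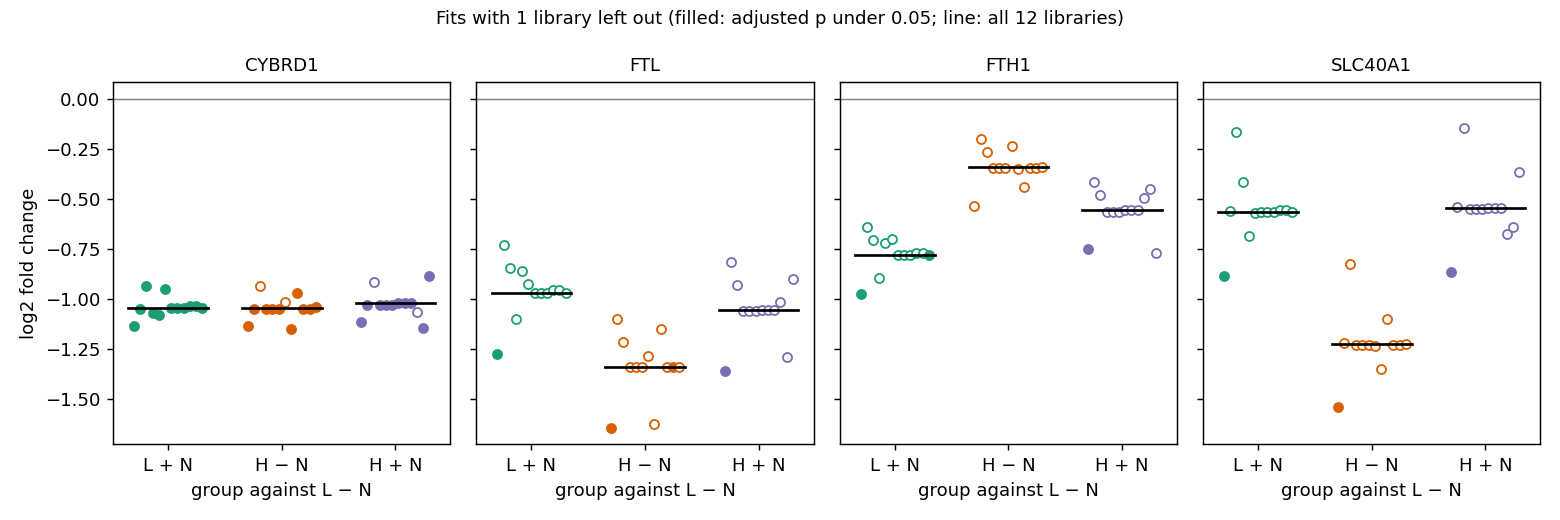
Log2 fold change against L − N of CYBRD1, FTL, FTH1 and SLC40A1 in 12 fits that each leave out 1 library, with the fit of all 12 libraries as a black line and filled points where the adjusted p was under 0.05. CYBRD1 stays between −1.15 and −0.89, whereas SLC40A1 in H − N runs from −1.54 without L − N replicate 1 to −0.83 without L − N replicate 3.

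TFRC (gene 397062; chr13:133976765-133997554, forward strand), the receptor for iron-loaded transferrin, showed no detectable difference. Its CPM was 9.42, 57.2 and 18.0 in the control, 36.4, 33.0 and 19.9 for L + N, 14.0, 18.2 and 45.5 for H − N and 27.0, 14.5 and 58.0 for H + N. The control alone covered a 6.07-fold range that took in nearly all other libraries. The adjusted p over the 4 groups was 0.972 (edgeR), and the 95% interval of H + N against L − N ran from −1.24 to 1.71 on the log2 scale, so that a doubling or a halving could not be told from no change at this spread.

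CP (gene 406870; chr13:89396713-89463540, reverse strand), the plasma copper oxidase that loads iron onto transferrin, had 91.9, 41.9 and 89.5 CPM in the control, 93.0, 125 and 38.6 for L + N, 62.1, 39.9 and 215 for H − N and 33.0, 75.8 and 19.0 for H + N. H − N replicate 3 was the highest library and the groups overlapped (edgeR, adjusted p = 0.501 over the 4 groups). The log2 difference of H + N from H − N was −1.31 (SE 0.678, unadjusted p = 0.0796), and it was not called. In the same H − N library the summed CPM of 6 neutrophil markers was 172, against 4.73 to 101 in the other 11 libraries, and their part in the CP value was not tested. CP overlaps the gene HPS3, and whether the counting used the strand is not given in the sources used here, so reads of the 2 genes may not be separated.

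Transferrin itself was scarce. The TF gene 396845 (chr13:74862502-74907059, forward strand) had 1.40, 5.71 and 1.68 CPM in the control, 0.631, 2.50 and 16.8 for L + N, 8.50, 14.8 and 0.897 for H − N and 0.527, 28.7 and 4.11 for H + N. The highest and lowest libraries of the series both belonged to H + N. Its biological coefficient of variation of 1.05 was the largest of the tested iron genes, against 0.162 for CYBRD1, and the groups did not differ beyond it (edgeR, adjusted p = 0.716). The TF gene 396996 (chr13:74930655-74970599, forward strand) had 73 reads in all, 1 to 12 in a library, and HEPH (gene 100512938; chrX:52314911-52397384, forward strand) had 49. Fitted without the minimum count, these rows had adjusted p-values of 0.381 or more in every comparison (edgeR). The TF rows carry the same name and neighbor each other, so reads could have been split between them in the counting.

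Counted over the 7 tested genes, 2 were called in H − N against L − N (CYBRD1 and FTL), 1 in L + N, 1 in H + N and 1 for NCG (CYBRD1 in each), all lower, and 0 for fiber, the interaction, H + N against H − N and H + N against L + N. With the additional limit of an absolute log2 fold change above 1, the NCG call, among 1.80% of all genes at this limit, dropped out, and 2.91%, 3.99% and 3.58% of all genes were called for H − N, L + N and H + N compared with the control. At an unadjusted p under 0.05, 3 of the 7 were counted for fiber (19.5% of all genes), the interaction (12.8%), H − N (24.4%), L + N (27.8%) and H + N (27.5%) against the control, 2 for NCG (23.6%) and 0 in the comparisons of H + N with H − N and L + N. In CPM, libraries did not overlap, with the treated group lower, for 2 genes in H − N (SLC40A1 and CYBRD1), 2 in L + N (FTH1 and CYBRD1) and 1 in H + N (CYBRD1). The same held for 12.7%, 17.2% and 12.7% of all genes. The median log2 fold change of the 7 was −0.34 in H − N, −0.57 in L + N and −0.56 in H + N, beside 0.03, −0.02 and 0.02 over all genes.

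Apart from the group means, some iron genes rose and fell together between libraries. After the group means were taken out, Pearson's r over the 12 libraries was 0.75 for FTL and CYBRD1, 0.73 for SLC40A1 and CYBRD1, and 0.71 for FTL and SLC40A1. For FTL and FTH1, the 2 chains of one shell, it was 0.34, and for FTH1 and TFRC 0.86. These are descriptions of libraries that share their scaling and composition, and a few libraries in each group decide them.

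The genes most like each iron gene in log2 CPM were also described over the 12 libraries. CYBRD1 was closest to LY96 (r = 0.98, rho = 0.97), an endotoxin co-receptor, MYO1E (r = 0.98, rho = 0.91), an unconventional myosin, and CTNS (r = 0.98, rho = 0.94), the lysosomal cystine exporter. FTL was closest to HVCN1 (r = 0.98), a proton channel, TRIM63 (r = 0.97) and ABHD12 (r = 0.97), and SLC40A1 to CD83 (r = 0.96), a surface protein of immune cells, ATG4C (r = 0.94) and GPR34 (r = 0.94), a lipid receptor. Without the 2 libraries farthest from the median of each iron gene, r was 0.95 to 0.96 for the genes named with CYBRD1, 0.90 to 0.93 for those with FTL and 0.87 to 0.92 for those with SLC40A1. FTH1 was closest to TFE3, SS18L2 and GTF2B (r = 0.94 each), TFRC to F5, NDUFAF4 and AMD1 (r = 0.93, 0.92 and 0.91), CP to TANC1, SLC4A4 and ANKZF1 (r = 0.90, 0.88 and 0.87) and TF to FRS3, ADAT3 and PIDD1 (r = 0.85, 0.84 and 0.84). Group means were not taken out of these values.

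Macrophage markers, like CYBRD1, FTL, FTH1 and SLC40A1, had their highest group means in the control. The sum of 12 such markers, among them CSF1R, CD68, CD14 and CD163, was 1514, 3850 and 4033 CPM in the control, 1262 to 1808 for L + N, 758 to 1136 for H − N and 1201 to 1536 for H + N. All 12 had a lower mean than L − N in each group, and 8 were called lower in H − N, 2 in L + N and 4 in H + N. Over all genes, 3.71%, 3.63% and 3.66% were called lower in the same order. None of the 12 was at 0 throughout a group. The sum was lowest in H − N, as were the means of FTL and SLC40A1. The mean of FTH1 was higher in H − N than in L + N and H + N, and CYBRD1 was level over these groups. L − N replicate 1, in which CYBRD1, FTL, FTH1 and SLC40A1 were lowest among the controls, was also the control with the lowest sum, inside the range of L + N. CYBRD1 in that library was 429 CPM, above all 9 treated libraries. For CYBRD1, FTL, FTH1 and SLC40A1 the part of the macrophage sum in the differences was not tested. In bulk tissue, fewer cells of a type and less RNA per cell cannot be told apart.

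Markers of other cell types were counted in the same way. The 10 markers of dividing cells, such as MKI67 and TOP2A, summed to 72.6 to 199.7 CPM in the control, 360.2 to 487 for L + N, 209.7 to 266 for H − N and 333 to 445 for H + N. Of these markers, 9 were called higher for L + N, 1 for H − N and 8 for H + N. Of all 15351 genes tested, 916, 240 and 661 were called higher in the same order. The 7 smooth muscle markers summed to 3692, 1112 and 1476 CPM in the control, and to 686 (H − N) to 1220 (H + N) in the other groups. Their means were lower in the other groups, and the control mean leaned on replicate 1. Of the 7, 1 was called for L + N and 0 for H − N and H + N (edgeR), with 6, 3 and 2 at an unadjusted p under 0.05. L − N replicate 1 is also the library without which FTL, FTH1 and SLC40A1 were called over the 4 groups. The red blood cell sum ran from 62.6 to 754 CPM in L − N and from 26.8 to 293 in the other groups, with 1 of 3 tested markers called lower for L + N and 0 for H − N and H + N (3, 3 and 0 unadjusted). Markers of epithelium, stroma and endothelium were present in all libraries, as the label endometrium requires. Of 8 endothelium markers, 2 were called lower for L + N, 1 for H + N and 0 for H − N. Of 10 stroma markers, 1 was called lower in each group and 1 higher for L + N and for H + N. Of 10 epithelium markers, 1 was called higher for H − N and 0 for L + N and H + N. Over all genes, 3.63%, 3.71% and 3.66% were called lower for L + N, H − N and H + N. Of 9 trophoblast markers, 2 were at 0 throughout L − N and H − N and 4 throughout L + N and H + N, and their sum was 36.0 to 87.3 CPM. The part of these cell types in the differences of the iron genes was not tested.

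Beyond the 8 names, 61 further genes of iron and heme handling were listed, of which 58 were found in the table and 55 tested. Over the 4 groups 5 of them were called, or 5 of 55 beside 6.96% of all genes. These were ACP5, HMOX1, CD163 and MELTF, which were highest in L − N, and UROS, which was lowest there. Hepcidin (HAMP), the hormone that closes ferroportin, its regulator ERFE and mitochondrial ferritin (FTMT) were the 3 genes below the minimum count, each with a mean under 0.1 CPM in every group.

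ACP5, the uteroferrin that carries iron from the glands, had 139 CPM in L − N replicate 1 and 469 and 441 in replicates 2 and 3. It had 145, 101 and 142 for L + N, 96.5, 76.4 and 63.0 for H − N and 68.3, 109 and 109.9 for H + N. As with FTL, the first control library lay among the L + N values. The log2 difference from L − N was −2.15 in H − N (SE 0.393, edgeR, adjusted p = 0.0214), −1.87 in H + N (SE 0.389, adjusted p = 0.0234) and −1.44 in L + N (SE 0.384, adjusted p = 0.0400). ACP5 is also a known enzyme of macrophages and osteoclasts.

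HMOX1, the inducible heme oxygenase that frees iron from heme, had 52.5, 128 and 81.6 CPM in the control, 48.8, 37.1 and 45.4 for L + N, 21.9, 22.0 and 23.0 for H − N and 24.6, 39.3 and 14.9 for H + N. It fell by 1.97 on the log2 scale in H − N (SE 0.353, adjusted p = 0.0196) and fell by 1.73 in H + N (SE 0.350, adjusted p = 0.0225), and L + N differed by −0.997 without being called (edgeR, adjusted p = 0.0879). CD163, the receptor that clears hemoglobin and itself one of the macrophage markers, had 186, 690.3 and 692 CPM in L − N against 106 to 229.8 elsewhere, and was called lower in all 3 groups. Its log2 differences were −2.02 in H − N, −1.57 in L + N and −1.71 in H + N.

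MELTF, a transferrin relative anchored in the cell membrane, had 41.8, 49.5 and 42.4 CPM in L − N and 5.41 to 29.9 in the other groups. Like CYBRD1 and HMOX1, and unlike ACP5 and CD163, all its control libraries stood above all others. Taken 1 group at a time, libraries did not overlap, with the treated group lower, for 12.7% (H − N), 17.2% (L + N) and 12.7% (H + N) of all genes. It was called in H + N (log2 difference −2.15, SE 0.481, edgeR, adjusted p = 0.0277), and not in H − N (−1.64, adjusted p = 0.0679) or L + N (−1.20, adjusted p = 0.122). MELTF overlaps a neighboring gene, LOC110256400, which limits its values in the same way as those of CP. UROS, an enzyme of heme synthesis, had 18.0, 16.7 and 18.4 CPM in the control, 20.2, 24.3 and 18.8 for L + N, 30.3, 25.7 and 29.1 for H − N and 22.7, 24.9 and 25.3 for H + N. It rose by 0.68 on the log2 scale in H − N (SE 0.134, edgeR, adjusted p = 0.0258), where 1.56% of all genes were called as higher.

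**Figure D5:**
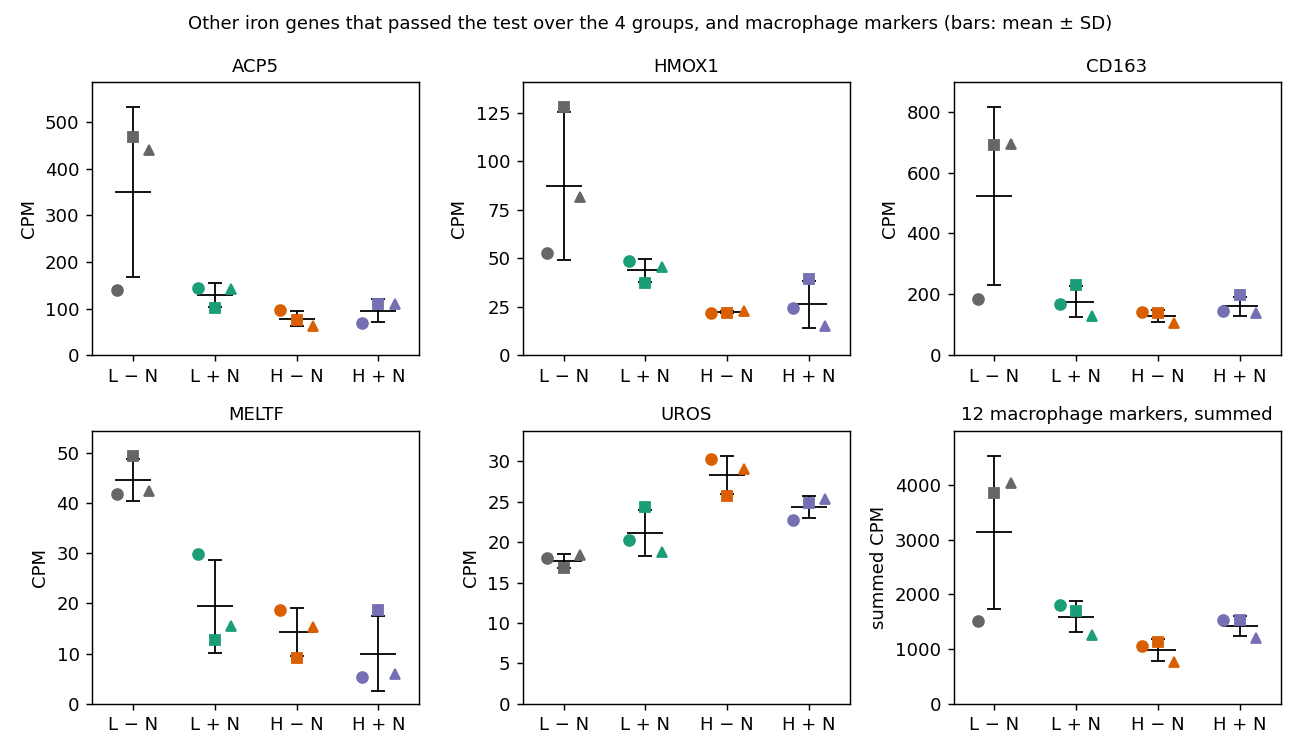
CPM by library of the 5 further iron and heme genes called over the 4 groups, and the summed CPM of 12 macrophage markers, of which CD163 is one. Circles, squares and triangles are replicates 1, 2 and 3, and bars are the mean ± SD (n = 3). L − N replicate 1 lies near the other groups for ACP5, CD163 and the marker sum, above them for MELTF and, by little, above them for HMOX1.

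By role, the 15 further genes of uptake and reduction had 1 called lower in H − N against L − N, 1 in L + N and 2 in H + N. The 20 tested genes of heme handling had 2 called lower and 1 higher in H − N, 3 lower in L + N and 2 lower in H + N. Over all genes, 3.71%, 3.63% and 3.66% were called lower in H − N, L + N and H + N, and with so few genes per role each count is 1 to 3 genes. None of the 6 tested regulators, 4 chaperone and ferritin turnover genes and 9 mitochondrial genes was called in any group against L − N (edgeR). At an unadjusted p under 0.05 the regulators had 0 for H − N, 1 for L + N and 1 for H + N, the chaperone list 1, 3 and 0, and the mitochondrial list 3, 3 and 2, beside 24.4%, 27.8% and 27.5% of all genes. Outside the naming rule, and picked after their values were seen, the remaining calls were STEAP3 (a ferric reductase of endosomes, −1.29 in L + N and −1.35 in H + N), HFE (a partner of TFRC, −0.91 in H − N), FECH (the last enzyme of heme synthesis, −0.54 in L + N) and SLC48A1 (a heme carrier, −0.70 in L + N). The NCG effect was called for STEAP3 (−1.02), HP (haptoglobin, −0.88) and FECH (−0.38).

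The sensors and partners of ferritin did not pass the test over the 4 groups. ACO1, which encodes iron regulatory protein 1, had 139 ± 40.8 CPM in L − N and 102 ± 7.06, 141 ± 55.1 and 112 ± 26.1 in L + N, H − N and H + N (edgeR, adjusted p = 0.488 over the 4 groups, SD, n = 3). IREB2, which encodes iron regulatory protein 2, ran between group means of 49.8 and 65.4 CPM (adjusted p = 0.387). PCBP1 and PCBP2, the chaperones that deliver iron to ferritin and the most abundant of the 61 by mean FPKM (148 and 139.8), had adjusted p-values of 0.259 and 0.669. PCBP1 and PCBP2 overlap ASPRV1 and MAP3K12. LTF, or lactoferrin, an iron binder of neutrophils and glands that was also picked after its values were seen, reached 382 CPM in H − N replicate 3 and 228 in L + N replicate 2 and lay between 2.97 and 18.8 in the other 10 libraries (edgeR, adjusted p = 0.185).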

How the data were processed

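The authors deposited one table with raw read counts per gene and FPKM values, made by the authors from those counts, for 12 libraries of polyA endometrial RNA. The submitters' processing notes name fastp 0.22.0, HISAT2 2.1.0, HTSeq 0.9.1 and the pig genome Sscrofa11.1, and the strand setting of the counting is not given in the sources used here. Libraries were grouped by title codes, reading H or L as the fiber level and N as added NCG, since no label spells out the diet of a library. Nothing in the labels says that each library came from a separate sow, so p-values measure the spread between these libraries, which may be partly technical.

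Tests used the counts in R 4.3.3 with edgeR 4.0.16 (TMM scaling, filterByExpr, one mean per group, 8 residual degrees of freedom, 15351 genes) and Benjamini-Hochberg adjustment over all genes tested. The threshold was an adjusted p of 0.05, in places with an absolute log2 fold change above 1. CPM use the TMM factors, and log2 CPM a prior count of 2. The common biological coefficient of variation was 0.269, and the chi-square per gene between replicates was 23.7 to 103, so counting error was small beside it. Alternatives were RLE scaling, no filter, DESeq2 1.42.0, a replicate block and leaving out each library. The scripts were tested on simulated data. FPKM served for levels between genes, for the ratio of the ferritin chains and for the overlap of groups where named, and no test used it.

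The members, gene lists and markers were chosen with earlier results of these data known. The naming rule took all 8 names, ACP5, the further iron genes called over the 4 groups, the 2 highest in mean FPKM, and the 3 genes most like each member.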

Additional observations from a re-analysis of the deposited data

How the results depend on the processing

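RLE scaling and no filter on low counts changed no call of the 7 tested iron genes and moved the median of all genes by at most 0.018 on the log2 scale (RLE). DESeq2 in place of edgeR called more iron genes, 4 over the 4 groups, 2 for fiber, 2 for NCG, 1 for the interaction (1 with the fold limit), 3 in H − N, 3 in L + N and 2 in H + N against L − N (2 with the fold limit). For the further iron list it called 15 over the 4 groups, 6 for fiber, 6 for NCG, 2 for the interaction, 11 in L + N and 13 in H + N against L − N, and 1 in H + N against H − N. Over all genes it called 3365 in place of 1068 over the 4 groups, so the rise was not limited to iron genes. It called 1123 in place of 8 for fiber, 2034 in place of 1116 for NCG and 302 in place of 0 for the interaction. Against L − N it called 2091 in place of 809 in H − N and 2701 in place of 1474 in L + N. For H + N it called 2680 in place of 1223 against L − N and 47 in place of 0 against H − N. The cause of the difference between the tools was not tested.

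Replicate numbers did not pair the libraries, since the same-number correlation of deviations ran from −0.32 to 0.28 (mean −0.03) and passed 0.1 in 3 of 18 pairs. With the number as a block, CYBRD1 kept its calls, FTL in H − N against L − N lost its call (edgeR, adjusted p = 0.0640), which left 1 iron gene there (1 with the fold limit), and the further list had 1 call over the 4 groups, 1 for NCG, 3 in H − N and 2 in L + N. Over all genes 477 were called over the 4 groups, 854 for NCG, 380 in H − N and 1097 in L + N against L − N. The uncalled values of TFRC for fiber (−0.0632) and of TF for H + N against H − N (−0.51) and against L + N (−0.00668) changed sign with the block.

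Leaving out each library in turn, the number of iron genes called ran from 0 to 4 over the 4 groups, 0 to 3 for fiber, 0 to 2 for NCG and the interaction (0 to 2 with the fold limit), 0 to 3 in H − N, 1 to 4 in L + N (0 to 2 with the fold limit) and 0 to 4 in H + N (0 to 2 with the fold limit). The further list ran from 0 to 7, 0 to 6, 0 to 6, 0 to 4, 0 to 7, 0 to 10 and 0 to 9 in the same order. The highest of these numbers came without L − N replicate 1. Over all genes the number called over the 4 groups ran from 4 without L − N replicate 3 to 1732 without L − N replicate 1. It ran from 0 to 1088 for fiber, 519 to 1231 for NCG and 0 to 437 for the interaction. Against L − N it ran from 0 to 2025 in H − N, 207 to 1964 in L + N and 1 to 1823 in H + N. A single gene's uncalled value changed sign in 50 of these cases. TFRC ran from −0.33 to 0.53 for fiber, −0.12 to 0.74 for NCG, −0.76 to 0.96 for the interaction, −0.81 to 0.92 in H − N, −0.33 to 1.12 in L + N and −0.45 to 1.27 in H + N against the control, −0.32 to 1.04 in H + N against H − N and −0.53 to 0.49 in H + N against L + N. TF ran from −0.028 to 2.14 for fiber, −0.32 to 1.28 for NCG, −2.99 to 1.34 for the interaction, −0.89 to 2.09 in L + N and −0.34 to 2.85 in H + N against the control, −1.81 to 1.23 in H + N against H − N and −1.53 to 2.81 in H + N against L + N. CP ran from −0.54 to 0.89 in H − N and −0.18 to 0.56 in L + N against the control. FTH1 ran from −0.16 to 0.013 for fiber, and SLC40A1 from −0.10 to 0.26 for NCG. For H + N against L + N, SLC40A1 ran from −0.14 to 0.20, FTL from −0.33 to 0.071 and CYBRD1 from −0.11 to 0.16, and CYBRD1 ran from −0.097 to 0.16 for H + N against H − N.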
